A study of Mus musculus with 36 samples.

Results

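The 8 genes described here encode enzymes of cholesterol synthesis: Hmgcs1, Mvd, Idi1, Fdps, Fdft1, Sqle, Lss and Cyp51. They were taken by name from a table of 22761 genes, and all 8 were present and measured in all 36 libraries. Each gene passed the filter on low values in every comparison. Their levels were followed across 9 groups of sorted mouse kidney progenitor cells, with 4 libraries in each group. The rule that chose them goes by gene name and uses no measured value, but the 8 genes were chosen with earlier results of these data known.

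The study compared kidney progenitors made from mouse embryonic stem cells (mESC) with the same cell types taken from embryonic kidneys, which are called ex-fetu cells. The ex-fetu groups were ureteric bud (UB), stromal progenitors (SP) and nephron progenitors (NP) of CD1 mice at embryonic day 11.5 (E11.5_UB, E11.5_SP, E11.5_NP) and at embryonic day 12.5 (E12.5_UB, E12.5_SP, E12.5_NP), with no treatment named in the labels. The ES-derived groups were iUB (called eUB in the study), grown from an mESC line that labels and sequencing methods name Sox9-mCherry (the reporter line whose making the study describes is Sox8-mCherry), and iSP and iNP, both sorted from embryoid bodies of E14 mESC. Each ex-fetu sample is a litter pool and an ES-derived sample a pool from a single differentiation run. Stromal progenitors were sorted as ITGA8 low and PDGFRA high cells, and nephron progenitors as ITGA8 high and PDGFRA low cells, after removal of EpCAM/RET-positive and CD31-positive cells. UB cells were sorted as EpCAM and RET positive, and iUB cells as EpCAM and mCherry positive. The ES-derived cells had grown in a base medium without serum but with N2, B27 and albumin, to which Matrigel was added late in the iUB protocol. Embryonic kidneys were used fresh or after cold storage in a medium with fetal bovine serum, and which samples were stored is not given in the sources used here. Origin, strain or cell line, medium, storage and time in culture thus differ together between ES-derived and ex-fetu groups and cannot be told apart. For the UB the labels conflict: the libraries titled E11.5 carry E12.5 as their cell source, and the reverse. The titles are used here; under the other label the direction of the UB stage comparison turns, and the iUB comparisons with E11.5_UB and E12.5_UB change places.

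Cells make cholesterol from acetyl-CoA. Hmgcs1 encodes the synthase that makes HMG-CoA, which is then reduced to mevalonate; Mvd and Idi1 act in the conversion of mevalonate into isoprene units, and Fdps joins these to farnesyl diphosphate. Fdft1 (squalene synthase) commits farnesyl diphosphate to sterols, Sqle oxidises squalene, Lss closes the rings to lanosterol and Cyp51 removes a methyl group from lanosterol. Genes of this pathway are known to be switched on together by the transcription factor SREBP2, encoded by Srebf2, when the sterol content of the endoplasmic reticulum is low, and INSIG proteins hold SREBP2 back when sterols are plentiful. In the embryo cholesterol is a membrane lipid and is also needed for Hedgehog signalling. Cultured cells can take sterols from serum lipoproteins or make their own.

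The promoters of genes that move together are shown first, because known SREBP2 targets carry short sterol regulatory elements near binding sites for NF-Y (CCAAT) and SP1 (GGGCGG). RefSeq promoters (GRCm38.p6) from 250 bases before to 50 bases after the start site were at hand for 5 of the 8 genes: Hmgcs1, Mvd, Idi1, Lss and Cyp51. The letters TCACNCCAC were searched on both strands and were found in 1 of these 5 promoters, that of Hmgcs1, and in 1.24% of all 32851 promoters. The match in Hmgcs1 lay 137 to 129 bases before the start site, and the stretch around it, on the plus strand at chr13:119690174-119690262, is printed with the match in capitals.
Hmgcs1: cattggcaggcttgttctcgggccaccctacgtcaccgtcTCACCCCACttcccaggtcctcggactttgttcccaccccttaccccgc

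CCAAT and GGGCGG, searched on both strands, each occurred in all 5 promoters, against 37.4% and 35.7% of all promoters. The last 70 bases before the start site held CCAAT or its reverse complement ATTGG in all 5, against 13.1% of all promoters. This window was not part of the planned search and only just takes in the Lss match, which began 62 bases before the start site. The count of 5 may therefore follow from the choice of window and is a description alone. CCAAT and ATTGG are in capitals in the lines that follow, which show the gene's own strand.
Hmgcs1, chr13:119690281-119690350, plus strand: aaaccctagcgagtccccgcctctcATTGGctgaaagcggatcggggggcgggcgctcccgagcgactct
Mvd, chr8:122443423-122443492, minus strand: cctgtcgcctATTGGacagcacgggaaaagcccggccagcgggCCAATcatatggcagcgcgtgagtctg
Idi1, chr13:8885536-8885605, plus strand: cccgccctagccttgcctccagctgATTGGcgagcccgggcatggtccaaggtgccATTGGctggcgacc
Lss, chr10:76531535-76531604, plus strand: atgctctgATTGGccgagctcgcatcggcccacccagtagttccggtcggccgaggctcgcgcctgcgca
Cyp51, chr5:4104698-4104767, minus strand: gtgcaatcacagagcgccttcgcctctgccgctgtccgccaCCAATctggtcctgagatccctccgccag
A match of letters is a description of these windows and does not show that a factor binds there. The genes lie on 7 chromosomes of GRCm38. The spans given here are from the GENCODE annotation, whose starts differ from the RefSeq start sites used above. The window of Idi1 therefore lies inside its span, and those of Lss and Cyp51 lie partly inside theirs. Hmgcs1 (ENSMUSG00000093930) spans chr13:119690379-119708260, Mvd (ENSMUSG00000006517) chr8:122433601-122443422, Idi1 (ENSMUSG00000058258) chr13:8885501-8892451 and Fdps (ENSMUSG00000059743) chr3:89093588-89101959. Fdft1 (ENSMUSG00000021273) spans chr14:63145150-63179578, Sqle (ENSMUSG00000022351) chr15:59315077-59331192, Lss (ENSMUSG00000033105) chr10:76531588-76557138 and Cyp51 (ENSMUSG00000001467) chr5:4081145-4104746. All are annotated as protein coding.

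Levels are given as normalised values, that is CPM: read counts relative to library size, with that size adjusted by edgeR's normalisation factors. Reads on genes ran from 13004352 in iUB replicate 1 to 52535113 in E12.5_SP replicate 2. The number of reads behind a value of these genes ran from 48 (Idi1 in an E12.5_SP library) to 33277 (Cyp51 in an E11.5_SP library). The sorted populations carried their own markers: the summed level of 8 ureteric bud markers was 2113 to 4270 in the 3 UB groups and at most 329 elsewhere, that of 5 stromal markers 671 to 1782 in the SP groups, and that of 6 nephron progenitor markers 521 to 2097 in the NP groups. Outside their own groups the stromal markers reached 252 (iNP) and the nephron progenitor markers 368 (E12.5_UB replicate 1) and 326 (iSP). Single markers went against the labels: the stromal marker Foxd1 had a mean of 15.2 in iSP, against 410 in E11.5_SP, 62.8 in E11.5_NP and 20.1 in iUB, and the nephron progenitor marker Cited1 a mean of 2.95 in iNP, against 31.3 in E11.5_NP and 15.8 in iUB. Stromal Tcf21 had means of 18.6 in iSP and up to 41.1 in the NP groups (E12.5_NP), ureteric bud Wnt11 120 in E11.5_SP against 75.9 in E11.5_UB and 69.5 in iUB, and ureteric bud Hoxb7 38.5 in iNP against 37.1 in E11.5_UB. Fdps has 4 near-copies over most of its transcript and Idi1 and Fdft1 have pseudogenes with shorter near-identical stretches; Fdft1 also shares 774 exonic bases with Ctsb on the opposite strand. Hmgcs1, Idi1, Lss and Cyp51 share 557, 323, 381 and 166 exonic bases with a gene on the opposite strand, and Mvd and Sqle had neither a near-copy nor an overlap. Since the use of strand in counting is not given in the sources used here, reads of such pairs may not be told apart. For Fdps, Idi1 and Fdft1 reads may also be shared with the near-copies. The effect on the levels was not tested.

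Several ex-fetu libraries stood apart in these genes, and the main results that rest on them are given with and without them. In E12.5_UB and E12.5_SP all 8 genes were highest in replicate 1, and in E12.5_NP 7 of 8 were. In E12.5_SP Hmgcs1 was 693 in replicate 1 and 161, 138 and 141 in the other 3 libraries, while the 4 E11.5_SP libraries ran from 392 to 1059.9. The difference was not limited to these genes: over 13633 genes the median absolute log2 difference of E12.5_SP replicate 1 was 0.333 to the mean of the other E12.5_SP libraries and 0.293 to the mean of E11.5_SP. For E12.5_NP replicate 1 the same medians were 0.281 and 0.264 over 13414 genes, while replicate 2 of that group lay farther out, at 0.313 and 0.334, and for E12.5_UB replicate 1 they were 0.236 and 0.261 over 13772 genes. E12.5_UB replicate 1 also held more RNA of other cells, with a summed level of 368 for nephron progenitor markers against 29.9 to 41.2 in the other 3 libraries, 133 against 5.40 to 11.7 for stromal markers, 78.6 against 2.60 to 5.12 for endothelial markers, 82.6 against 5.94 to 37.2 for erythroid markers and 20.02 against 0.0473 to 0.145 for 4 pluripotency markers. Its ureteric bud markers summed to 2113 against 3314 to 3598. In E12.5_SP replicate 1 stromal markers summed to 1052 against 1710 to 1782 in the other 3 libraries, and erythroid markers to 279 against 873 to 2791. In E12.5_NP replicate 1 nephron progenitor markers summed to 1179 against 1829 to 2097, and ureteric bud markers to 109 against 40.05 to 49.5. The part of these markers in the levels of the 8 genes was not tested. In E11.5_SP all 8 genes were higher in both replicates 3 and 4 than in both replicates 1 and 2. Differences from E11.5_SP are therefore also given without either of these pairs. Since each pair, and E12.5 replicate 1, was singled out after its values were seen, a fit without them understates the spread between samples.

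**Figure D1:**
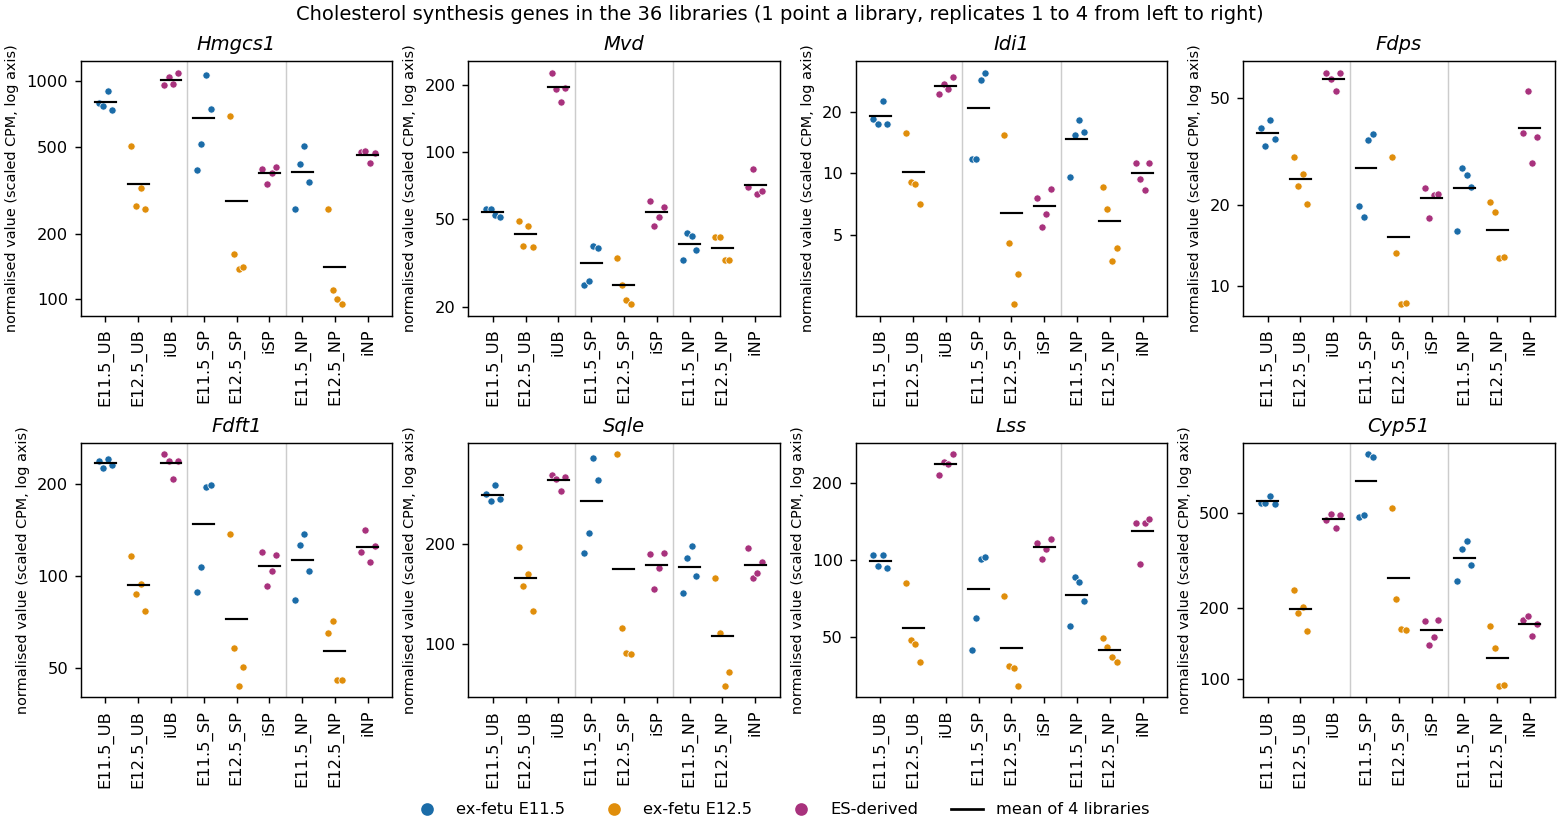
Normalised value (scaled CPM, log axis) of each of the 8 genes in the 36 libraries, by group. Each point is a library, replicates 1 to 4 from left to right, and each bar is the mean of 4; iUB had the highest mean for 6 genes, and replicate 1 stands above the other E12.5 libraries of its group except for Fdft1 in E12.5_NP.

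The enzymes that lead to farnesyl diphosphate were highest in iUB. Hmgcs1 was 956, 1043, 968 and 1092 in the iUB libraries (mean 1015 ± 64.2, SD, n = 4) and 794, 768, 903 and 739 in E11.5_UB (801 ± 71.6). Every iUB library was above every E11.5_UB library. E12.5_NP was lowest, at 259.6, 111, 99.9 and 95.2 (141 ± 79.1), so that the highest group mean was 7.18 times the lowest. Mvd was 228, 193, 168 and 195 in iUB (196 ± 24.8), and no other library of the series exceeded 83.5. In Mvd the ES-derived groups iUB, iNP (71.1 ± 8.42) and iSP (53.5 ± 5.999) held the first 3 places, with iSP level with E11.5_UB (53.4 ± 2.28). In the ex-fetu groups Mvd means ran from 25.1 ± 5.82 in E12.5_SP to 53.4 ± 2.28 in E11.5_UB. Idi1 was low throughout, with group means from 5.82 ± 2.21 in E12.5_NP to 26.7 ± 2.25 in iUB. Fdps means ran from 15.2 ± 10.2 in E12.5_SP to 59.0 ± 4.13 in iUB.

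The enzymes from squalene synthesis onward had 3 different leading groups. Lss was 214, 239.7, 237 and 258 in iUB (237 ± 17.98) and at most 145 in any other library, and iNP (129 ± 22.5) and iSP (112 ± 8.42) again held the next places. Sqle was also highest in iUB (310.1 ± 15.5), ahead of E11.5_UB (280.3 ± 13.8) with overlapping libraries. Fdft1 was level at the top between E11.5_UB (233 ± 7.39) and iUB (233 ± 17.6). Cyp51 was the exception: it was highest in E11.5_SP, at 483, 492, 885 and 865 (681 ± 224), then in E11.5_UB (561 ± 19.7) and iUB (473 ± 30.3). In iSP it was 176, 139, 150.3 and 177 (161 ± 19.1) and in iNP 177, 184, 152 and 170.4 (171 ± 13.8), so that these ES-derived mesenchymal groups lay below every E11.5 library of their own cell type.

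Read as an order over the 9 groups, iUB came first for 6 of 8 genes, E11.5_UB for Fdft1 and E11.5_SP for Cyp51. E12.5_NP came last for 6 genes and E12.5_SP for 2, Mvd and Fdps. Most neighbours in these orders were not separated by their spread. For Mvd 3 of 8 neighbouring pairs had no overlapping libraries (iUB above iNP, iNP above iSP and E11.5_UB above E12.5_UB), for Cyp51 2 of 8, for Hmgcs1, Fdps, Fdft1 and Lss 1 of 8, and for Idi1 and Sqle 0 of 8. Between genes, levels per kilobase of annotated exon put Hmgcs1 and Cyp51 in the first 2 places and Idi1 in the last in every group; the highest group mean was 221 per kilobase for Hmgcs1 and 7.63 per kilobase for Idi1.

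The first question of the design was how ES-derived cells differ from E11.5 ex-fetu cells of the same type. All differences are between group means of log2(value + 1), 4 libraries against 4, a scale that understates the changes of low genes such as Idi1. In sorted bulk samples, fewer cells that express a gene and less RNA per cell cannot be told apart, and the p-values measure the spread between pools of animals or of embryoid bodies. In iUB the 4 enzymes up to farnesyl diphosphate were all higher than in E11.5_UB, while the later enzymes split. Of the 8 genes, 5 rose and 1 fell at an adjusted p under 0.05 (limma, log2 of value plus 1), in a comparison in which 60.5% of 13956 genes were called in either direction and 32.1% as higher. Mvd rose by 1.85 on the log2 scale (SE 0.09, adjusted p = 2.7e-07) and Lss by 1.25 (SE 0.08, adjusted p = 1.0e-06), the largest changes of the 8. Fdps rose by 0.66 (SE 0.09), Idi1 by 0.48 (SE 0.11) and Hmgcs1 by 0.34 (SE 0.09). Cyp51 fell by 0.25 (SE 0.07, adjusted p = 0.0132). Fdft1 differed by -0.01 (SE 0.07) and Sqle by 0.15 (SE 0.07), with overlapping libraries. The 6 called genes were those whose libraries did not overlap, as in 56.1% of all genes tested. When one fit of all 36 libraries set the spread, only Mvd, Fdps and Lss passed the threshold; the call of Cyp51 was also lost with quantile normalisation (-0.12, adjusted p = 0.158) and with a replicate block (adjusted p = 0.056). Macrophage markers, 6 in number, summed to 52.5 to 92.1 in E11.5_UB and to at most 0.558 in iUB, with C1qa at 0 in all iUB libraries. In E11.5_UB and iUB, cycling cell markers summed to 979 to 1111 and 1279 to 1702, and ureteric bud markers to 4030 to 4270 and 3187 to 3524. In the same order, stromal markers summed to 7.18 to 13.3 and 20.2 to 32.2, and erythroid markers to 5.91 to 51.7 and at most 0.0859. Pluripotency markers summed to 0.107 to 0.402 and 2.15 to 3.30. The stromal sum in iUB was mostly Foxd1 (mean 20.1, against 2.51 in E11.5_UB). Pdgfra, Meis1, Tbx18 and Tcf21 had lower means in iUB than in E11.5_UB. The pluripotency sum in iUB was mostly Zfp42 (mean 2.54), while Pou5f1, Nanog and Dppa5a had means of at most 0.0371. The part of all these markers in the differences was not tested.

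In iSP cells Mvd and Lss were higher than in E11.5_SP, and 4 genes were lower. Cyp51 fell by 2.03 (SE 0.21, adjusted p = 2.8e-05): its 4 iSP libraries lay between 139 and 177 and its 4 E11.5_SP libraries between 483 and 885. Idi1 fell by 1.33 (SE 0.32, adjusted p = 0.00442), from 11.8, 11.7, 28.4 and 31.0 to 7.59, 5.48, 6.32 and 8.41. Hmgcs1 fell by 0.74 (SE 0.26, adjusted p = 0.0298) and Sqle by 0.59 (SE 0.20, adjusted p = 0.0230), both with overlapping libraries. Mvd rose by 0.77 (SE 0.15, adjusted p = 0.00156), without overlap. Lss rose by 0.62 (SE 0.24, adjusted p = 0.0458), with overlap. Fdps (-0.29, SE 0.23) and Fdft1 (-0.36, SE 0.25) did not pass. That made 6 genes of 8 called, against 67.6% of 13916 genes, and libraries did not overlap in 3 of 8, against 62.2%. Without replicate 2 or without replicate 3 of iSP the count was 3, and the calls of Hmgcs1, Sqle and Lss were lost; those of Hmgcs1 and Lss were also lost without either of the other iSP libraries.

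The falls in iSP were larger against E11.5_SP replicates 3 and 4 than against replicates 1 and 2. Hmgcs1 was 392 and 515 in replicates 1 and 2 and 1059.9 and 741 in replicates 3 and 4, and Sqle was 188 and 214, and 362 and 311. Without replicates 3 and 4 the differences of Hmgcs1 (-0.25) and Sqle (-0.22) did not pass, Idi1 differed by -0.70 and Cyp51 by -1.60, and Mvd and Lss by 1.03 and 1.10; 4 of 8 genes were called, against 75.8% of all genes. Without replicates 1 and 2 Hmgcs1 differed by -1.23, Sqle by -0.96, Idi1 by -1.96 and Cyp51 by -2.45, Mvd by 0.50 and Lss by 0.14, which did not pass, and 7 of 8 genes were called, against 67.4%. Erythroid markers, 5 in number, summed to 68.2 to 1457 in E11.5_SP and to at most 0.0483 in iSP. In the same order, ureteric bud markers summed to 143 to 329 and 85.2 to 96.5, and stromal markers to 1040 to 1401 and 671 to 780. Nephron progenitor markers summed to 217 to 267 and 292 to 326, and pluripotency markers to 0.208 to 0.437 and 4.03 to 6.14. Cycling cell markers summed to 1059 to 1191 and 1399 to 1505. Of these, Mki67 (mean 120 against 183) and Pcna (180 against 184) were lower in iSP. The part of all these markers was not tested.

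In iNP cells 3 genes were higher and 2 lower than in E11.5_NP. Mvd rose by 0.88 (SE 0.12, adjusted p = 1.6e-04), from 32.5, 43.0, 41.7 and 36.2 in E11.5_NP to 69.4, 83.5, 64.8 and 66.9. Lss rose by 0.82 (SE 0.17, adjusted p = 0.0020) and Fdps by 0.71 (SE 0.21, adjusted p = 0.0135), each with all iNP libraries above all E11.5_NP libraries. Replicate 2 of iNP stood apart, with Lss at 96.0 against 139 to 145 and Fdps at 53.1 against 28.6 to 37.1 in the other iNP libraries. Its nephron progenitor markers summed to 521 against 708 to 804. Cyp51 fell by 0.91 (SE 0.13, adjusted p = 1.9e-04), and Idi1 fell by 0.49 (SE 0.19, adjusted p = 0.0426). Hmgcs1 (0.31, SE 0.18), Fdft1 (0.16, SE 0.15) and Sqle (0.03, SE 0.12) did not pass. The count was 5 of 8, against 64.7% of 14064 genes, and libraries did not overlap in 4 of 8, against 62.4%. Nephron progenitor markers summed to 521 to 804 in iNP and 1345 to 1502 in E11.5_NP, and ureteric bud markers to 114 to 146 and 51.6 to 74.2. In the same order, endothelial markers summed to 43.1 to 72.9 and 8.24 to 24.1, and pluripotency markers to 3.07 to 5.74 and at most 0.103. Cycling cell markers summed to 1365 to 1623 and 1195 to 1250. Of these, Top2a was higher in iNP (mean 592, against 279), while Mcm2 (299 against 452) and Pcna (210 against 251) were lower. The part of all these markers was not tested. The call of Idi1 was lost without any one of the 7 libraries other than E11.5_NP replicate 1. In all 3 cell types, then, Mvd and Lss were higher and Cyp51 was lower in ES-derived cells than in E11.5 cells. The calls of Cyp51 in iUB and of Lss in iSP were among those lost in some settings. These comparisons called 60.5%, 67.6% and 64.7% of all genes, and the share called in the same direction in all 3 is not given here. They share no library, but iSP and iNP came from the same mESC line and protocol. By the conflicting UB label the iUB values would be those against the libraries titled E12.5_UB, where Mvd (2.18) and Lss (2.16) were also higher but Cyp51 was higher (1.27), so that for Cyp51 the statement holds under the titles alone. The median difference of the 8 genes was 0.41, -0.48 and 0.23 in iUB, iSP and iNP, beside 0.02, 0.04 and 0.07 for all genes tested. Upper-quartile scaling moved the median of all genes to 0.17 in iSP and 0.25 in iNP and the share of called genes that were higher from 52.5% to 60.8% and from 54.9% to 66.4%; with it Mvd and Lss were still called higher and Cyp51 lower in all 3 comparisons.

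**Figure D2:**
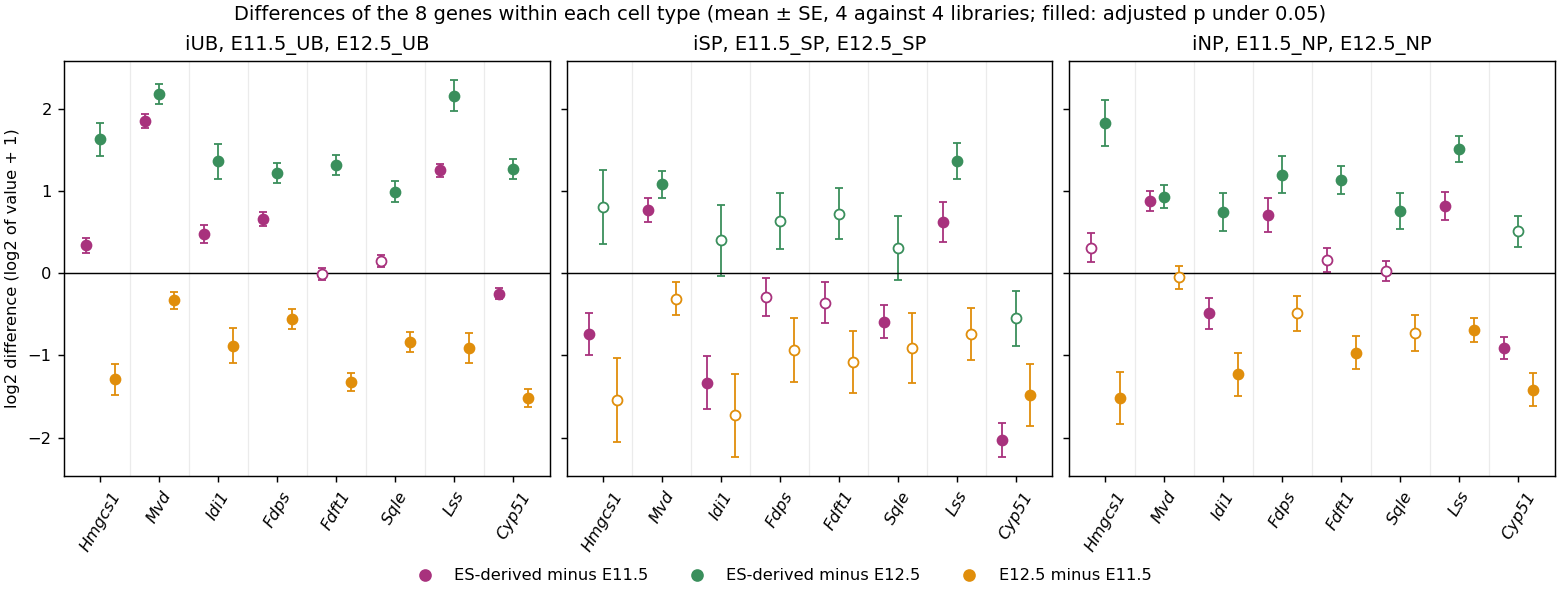
Log2 difference (log2 of value plus 1, mean ± SE of the limma fit, 4 against 4 libraries) of each gene in iUB, iSP and iNP against E11.5 and E12.5 cells and in E12.5 against E11.5 cells. Filled points passed an adjusted p of 0.05: Mvd and Lss lie above 0 in all 6 comparisons of ES-derived with ex-fetu cells, and the E12.5 minus E11.5 points lie below 0.

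Whether the change from E11.5 to ES-derived cells differed between cell types was tested as an interaction over 16 libraries. Between UB and SP it differed for 6 of 8 genes, against 47.4% of all genes: Idi1 by 1.81 (SE 0.36, adjusted p = 5.8e-04), Cyp51 by 1.78 (SE 0.24, adjusted p = 1.6e-05), Hmgcs1 and Mvd each by 1.08 (SE 0.29 and 0.19), Fdps by 0.95 (SE 0.26) and Sqle by 0.74 (SE 0.22). In each of these the change was more upward in UB. Between UB and NP it differed for 3 genes, against 47.1% of all genes: Mvd and Idi1 each by 0.97 (SE 0.15 and 0.22) and Cyp51 by 0.66 (SE 0.15). Between SP and NP it differed for 3 genes, against 29.3% of all genes: Cyp51 by -1.12 (SE 0.27), Hmgcs1 by -1.05 (SE 0.34) and Fdps by -1.0 (SE 0.33), that is, each changed more downward in SP. This last count was 1 without iSP replicate 2 or without E11.5_NP replicate 1, and 5 without E11.5_SP replicate 1 or replicate 2; it was 1 without E11.5_SP replicates 3 and 4 and 7 without replicates 1 and 2. The interaction of Lss did not pass in any of the 3 tests (0.63, 0.43 and -0.20).

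Against E12.5 cells of their own type, iUB and iNP stood higher in most of the 8 genes. All 8 were higher in iUB than in E12.5_UB, by 0.99 (Sqle, SE 0.13) to 2.18 (Mvd, SE 0.12) on the log2 scale, with no overlapping libraries; 44.4% of 13872 genes were called, 23.3% as higher, and libraries did not overlap in 42.6%. Lss rose by 2.16 (SE 0.19), Hmgcs1 by 1.63 (SE 0.20), Idi1 by 1.36 (SE 0.21) and Fdft1 by 1.32 (SE 0.12). Cyp51 (1.27, SE 0.12) and Fdps (1.22, SE 0.12) followed. All 8 stayed higher without E12.5_UB replicate 1, where 51.5% of all genes were called. In iNP 7 of 8 were higher than in E12.5_NP, against 25.6% of 14067 genes called as higher and 44.3% in either direction. Hmgcs1 rose most, by 1.83 (SE 0.28, adjusted p = 5.9e-04), then Lss by 1.51 (SE 0.16) and Fdps by 1.2 (SE 0.22). Fdft1 rose by 1.13 (SE 0.17), Mvd by 0.93 (SE 0.14), Sqle by 0.76 (SE 0.22) and Idi1 by 0.74 (SE 0.23). Cyp51 (0.51, SE 0.19, adjusted p = 0.0526) did not pass; without E12.5_NP replicate 1 all 8 passed, with 43.4% of all genes called, and Cyp51 was 0.68 higher (SE 0.16, adjusted p = 0.0084). Macrophage markers summed to 40.1 to 72.3 in E12.5_UB and to at most 0.558 in iUB, and erythroid markers to 5.94 to 82.6 and at most 0.0859. Between iNP and E12.5_NP, endothelial markers summed to 43.1 to 72.9 and 6.65 to 25.2, and nephron progenitor markers to 521 to 804 and 1179 to 2097. In the same order, ureteric bud markers summed to 114 to 146 and 40.05 to 109, and stromal markers to 222 to 252 and 164 to 217. Pluripotency markers summed to 3.07 to 5.74 and at most 0.431, and erythroid markers to at most 0.141 and 3.21 to 69.9. The part of all these markers was not tested.

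In iSP against E12.5_SP only Mvd (1.08, SE 0.16, adjusted p = 2.5e-04) and Lss (1.36, SE 0.22, adjusted p = 4.6e-04) were higher, against 33.3% of 13903 genes called as higher and 62.1% in either direction. This count turned on 1 library, which was singled out for its high values in these genes, so that a fit without it understates the spread. Without E12.5_SP replicate 1, 7 of 8 were higher, by 0.79 (Sqle, SE 0.10) to 1.60 (Lss, SE 0.09), with 69.9% of all genes called, and Cyp51 differed by -0.16 (SE 0.12). Hmgcs1 shows the step: its 4 iSP libraries were 394, 337, 379 and 405, between E12.5_SP replicate 1 at 693 and the other E12.5_SP libraries at 138 to 161. Between iSP and E12.5_SP, stromal markers summed to 671 to 780 and 1052 to 1782, nephron progenitor markers to 292 to 326 and 148 to 281, erythroid markers to at most 0.0483 and 279 to 2791, endothelial markers to 30.3 to 47.1 and 18.5 to 25.02, and pluripotency markers to 4.03 to 6.14 and 0.108 to 0.275; their part was not tested. The comparisons with E11.5 and with E12.5 cells share the ES-derived libraries and are not independent of each other.

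The 8 genes were lower at E12.5 than at E11.5 wherever a difference passed the test. In UB all 8 fell, against 26.5% of 13772 genes called and 12.3% as lower. Cyp51 fell by 1.52 (SE 0.11, adjusted p = 8.1e-05), from 554, 552, 590.3 and 548 to 238, 189, 201 and 159. Fdft1 fell by 1.32 (SE 0.11) and Hmgcs1 by 1.29 (SE 0.19), and Lss, Idi1, Sqle and Fdps fell by 0.91, 0.88, 0.84 and 0.56. Mvd fell least, by 0.33 (SE 0.10, adjusted p = 0.0329). In all 8 no E12.5_UB library reached the lowest E11.5_UB library, as was the case, in either direction, for 29.1% of genes. With a replicate block 7 passed, with 1 library left out at least 7, and in one fit of all 36 libraries 5. All 8 remained lower without E12.5_UB replicate 1, with 44% of all genes called, where the fall of Cyp51 was 1.62 (SE 0.07) and that of Mvd 0.40 (SE 0.08). By the conflicting cell source label of the UB these would be rises. Cycling cell markers summed to 1263 to 1401 in E12.5_UB and 979 to 1111 in E11.5_UB, and ureteric bud markers to 2113 to 3598 and 4030 to 4270, without overlap in either. Of the cycling cell markers Mcm2 (mean 285 against 299) and Pcna (161 against 181) were lower in E12.5_UB. The part of all these markers was not tested.

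In NP 5 of 8 genes fell, against 6.34% of 13414 genes called and 3.59% as lower. Hmgcs1 fell by 1.52 (SE 0.32, adjusted p = 0.0280), Cyp51 by 1.42 (SE 0.20, adjusted p = 0.00647), Idi1 by 1.23 (SE 0.26, adjusted p = 0.0264), Fdft1 by 0.97 (SE 0.20, adjusted p = 0.0238) and Lss by 0.69 (SE 0.15, adjusted p = 0.0283). Sqle (-0.73, SE 0.22), Fdps (-0.49, SE 0.21) and Mvd (-0.05, SE 0.14) did not pass. The count was 6 without E12.5_NP replicate 1, with 17% of all genes called, and 1 without any one of E11.5_NP replicates 2, 3 and 4 or E12.5_NP replicates 3 and 4. Cycling cell markers summed to 1264 to 1453 in E12.5_NP and 1195 to 1250 in E11.5_NP. Of these, Mcm2 (mean 386 against 452) and Pcna (213 against 251) were lower in E12.5_NP, and Mki67 ran from 6.45 to 455 within E12.5_NP. The part of these markers was not tested. In SP only Cyp51 fell (1.48, SE 0.38, adjusted p = 0.0406), with overlapping libraries, against 8.52% of 13633 genes called and 4.8% as lower. Without E12.5_SP replicate 1, 7 of 8 fell, with 21.5% of all genes called, and without any other single library, or without either pair of E11.5_SP libraries, none did. The 3 E12.5_SP libraries other than replicate 1 lay far below the E11.5_SP range in most genes: Sqle was 111, 93.6 and 93.4 against 188 to 362, and Fdft1 was 58.2, 43.8 and 50.4 against 88.6 to 198. Mvd lay nearest, at 25.1, 21.4 and 20.6 against 25.0 to 37.7. Erythroid markers summed to 279 to 2791 in E12.5_SP and 68.2 to 1457 in E11.5_SP, cycling cell markers to 1281 to 1541 and 1059 to 1191, and ureteric bud markers to 91.7 to 125 and 143 to 329, the last 2 lists without overlap. Of the cycling cell markers Mcm2 (mean 272 against 301) and Pcna (175 against 184) were lower in E12.5_SP. The part of all these markers was not tested.

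**Figure D3:**
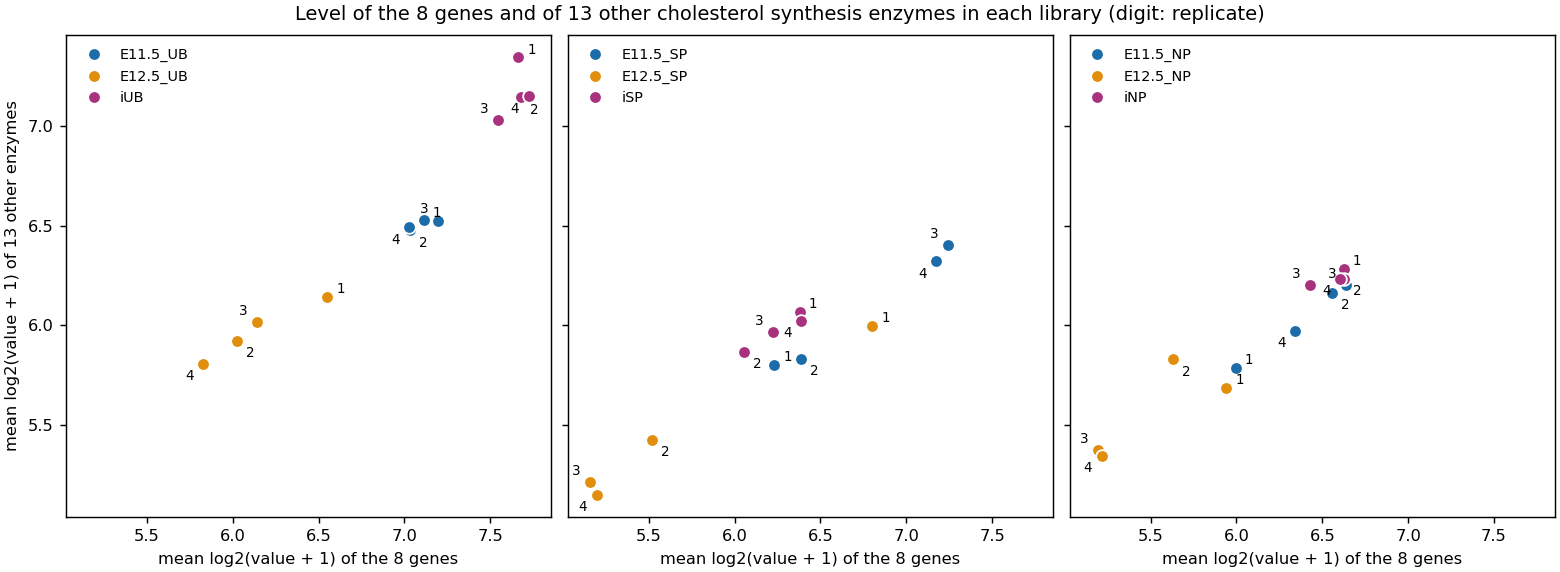
Mean log2(value + 1) of the 8 genes (x axis) and of 13 other cholesterol synthesis enzymes (y axis) in each library, with the replicate number beside each point. Replicate 1 is the highest E12.5 library on the x axis in all 3 cell types, and E12.5_SP replicate 1, at 6.80, lies within the E11.5_SP libraries, at 6.23 to 7.24.

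Among ES-derived cells the ureteric bud type carried the highest levels: all 8 genes were higher in iUB than in iNP, by 0.63 (Fdps, SE 0.17) to 1.46 (Cyp51, SE 0.10), and higher in iUB than in iSP, by 0.85 (Sqle, SE 0.09) to 1.85 (Mvd, SE 0.11), with no overlapping libraries in either. Of all genes, 52.2% were called and 25.8% were higher in iUB than in iNP, and 64.7% were called and 32% were higher in iUB than in iSP; libraries did not overlap in 50.4% and 59.5%. iUB came from another cell line and another differentiation than iNP and iSP, which cannot be told apart from cell type. iNP exceeded iSP in 4 genes, all before squalene: Fdps by 0.81 (SE 0.17), Idi1 by 0.48 (SE 0.15), Mvd by 0.41 (SE 0.11) and Hmgcs1 by 0.28 (SE 0.09), against 30.7% of all genes called and 16.5% as higher. This count was 1 without iSP replicate 2 or replicate 3 and 2 without iNP replicate 1 or replicate 4.

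At E11.5, UB exceeded NP in 7 of 8 genes, against 60.2% of all genes called and 28.7% as higher, with Idi1 (0.36, SE 0.17) short of the threshold; Hmgcs1 led with 1.11 (SE 0.16) and Fdft1 with 1.07 (SE 0.12). UB exceeded SP only in Mvd (0.77, SE 0.14) and Fdft1 (0.75, SE 0.24), against 53.6% of all genes called and 26.8% as higher, and the count was 4 without E11.5_SP replicate 3 or replicate 4 and 1 without E11.5_SP replicate 2 or E11.5_UB replicate 1, 3 or 4. Without E11.5_SP replicates 3 and 4 all 8 were higher in UB, against 64.4% of all genes called; without replicates 1 and 2 Mvd and Fdft1 were higher and Idi1, Sqle and Cyp51 lower, against 57.3%. NP was below SP in Cyp51 (-1.02, SE 0.23) and Sqle (-0.62, SE 0.20), against 43.1% of all genes called and 22.2% as lower; only 1 gene passed without E11.5_NP replicate 1, 2 or 4 or E11.5_SP replicate 3 or 4. Without E11.5_SP replicates 1 and 2, 7 genes were lower in NP (45.7% of all genes called), and without replicates 3 and 4, 1 was lower and 1 higher (50.3%). At E12.5, UB exceeded NP in Hmgcs1 (1.33, SE 0.34), Fdft1 (0.72, SE 0.18), Cyp51 (0.70, SE 0.20) and Fdps (0.61, SE 0.20), against 32.7% of all genes called and 18.4% as higher, in 6 genes without E12.5_NP replicate 1, with or without E12.5_UB replicate 1, and in 2 genes without E12.5_NP replicate 3 or 4 or E12.5_UB replicate 1, 2 or 3. UB exceeded SP in Mvd alone (0.75, SE 0.17), against 46.4% of all genes called and 24.6% as higher, in 6 genes without E12.5_SP replicate 1 and in 7 with replicate 1 of both groups left out. The shares of all genes at E12.5 are those of the fits with all libraries. Shares with libraries left out are not given here, so the counts in those settings cannot be set against them. NP exceeded SP in Mvd (0.55, SE 0.18, adjusted p = 0.0368), against 34.8% of all genes called and 17% as higher, and no gene passed when any one library other than E12.5_SP replicate 1 was left out. In UB, macrophage markers summed to 52.5 to 92.1 at E11.5 and 40.1 to 72.3 at E12.5. In NP and SP they summed to at most 1.91 at E11.5 and 1.88 at E12.5, and their part in these differences was not tested. E12.5_NP and E12.5_SP libraries of the same number moved together. In a fit blocked by replicate 3 genes passed: Mvd was higher in NP (0.55, SE 0.09), and Cyp51 (-0.96, SE 0.16) and Hmgcs1 (-0.74, SE 0.16) were lower. The block also raised the number of all genes called, as the last section gives, so this count cannot be set against 34.8%. With replicate 1 of both groups left out the same 3 genes passed in the same directions, and the share of all genes in that setting is not given here.

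Libraries of one group also differed in the 8 genes together, by unequal amounts: the SD of their mean log2 level was 0.77 in E12.5_SP and 0.53 in E11.5_SP and 0.08 in E11.5_UB and in iUB. After the group means were subtracted, the 28 pairs of genes had Pearson correlations of 0.688 to 0.969 over the 36 libraries (median 0.893). Without E12.5 replicate 1 these ran from 0.554 to 0.965 (median 0.858, 33 libraries), and with E11.5_SP left out as well from 0.215 to 0.946 (median 0.772, 29 libraries). In the 16 libraries of E11.5_UB and the ES-derived groups they ran from -0.437 to 0.892 (median 0.612). The libraries share their normalisation. Of 15993 genes, Msmo1, a later enzyme of the pathway, followed the mean of the 8 standardised genes most closely (r = 0.988 over 36 libraries). Aacs, an acetoacetyl-CoA synthetase (0.957), Sc5d, a sterol desaturase (0.914), Stard4, a sterol carrier (0.872), Gm6781, a pseudogene with a near-identical stretch of Fdft1 (0.869), Dhcr7, which makes cholesterol from 7-dehydrocholesterol (0.863), Insig1 (0.857) and Il17ra, a cytokine receptor (0.835), were among the first 10. After the group means were subtracted Msmo1 (0.971), Aacs (0.872) and Insig1 (0.861) were again among the first 10, beside genes that do not make sterols, such as Hspd1, a mitochondrial chaperone (0.866), Msrb2, a methionine sulfoxide reductase (0.854), and Ddx20, an RNA helicase (0.853). No p is given, since the libraries share groups.

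The rest of the pathway was followed in 6 lists. Their counts stand beside 60.5%, 67.6% and 64.7% of all genes called in either direction in iUB, iSP and iNP against E11.5 cells, and 44.4%, 62.1% and 44.3% against E12.5 cells. Of 13 other cholesterol synthesis enzymes, 11 were higher and 1 lower in iUB than in E11.5_UB (median 0.81 against 0.02 for all genes). The one that fell was Lbr (-0.32, SE 0.06). Hsd17b7 rose by 1.35 (SE 0.08), Msmo1 by 1.02 (SE 0.07) and Nsdhl by 1.0 (SE 0.11). In iSP 4 were higher and 5 lower than in E11.5_SP (median -0.19): Ebp, a sterol isomerase, rose by 1.10 (SE 0.12), while Sc5d fell by 0.74 (SE 0.12), Hsd17b7 by 0.53 (SE 0.20) and Lbr, a sterol reductase, by 0.35 (SE 0.13). The calls of Hsd17b7 and Lbr were lost with quantile and upper-quartile scaling, without E11.5_SP replicate 3 or 4, and without iSP replicate 2, 3 or 4. The iSP counts were 6 and 3 without E11.5_SP replicates 3 and 4 and 2 and 7 without replicates 1 and 2. In iNP 6 were higher and 3 lower than in E11.5_NP (median 0.18), with Ebp up by 1.07 (SE 0.18) and Mvk and Pmvk, which phosphorylate mevalonate and its phosphate, up by 0.80 (SE 0.12 and 0.14), and Sc5d down (-0.50, SE 0.11). At E12.5 10 of 13 were lower than at E11.5 in UB, 2 in SP and 5 in NP, beside 12.3%, 4.8% and 3.59% of all genes, and none was higher. Against E12.5 cells, 12, 6 and 10 of 13 were higher in iUB, iSP and iNP, beside 23.3%, 33.3% and 25.6% of all genes, and none was lower. Without E12.5 replicate 1 the stage counts were 12, 6 and 5 lower and the counts against E12.5 cells 12, 11 and 9 higher, again with none in the other direction, where 44%, 21.5% and 17% and then 51.5%, 69.9% and 43.4% of all genes were called.

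Of the genes that sense sterols, Insig1, itself a known SREBP2 target, was 381 in iUB and 198 in E11.5_UB (a rise of 0.94 on the log2 scale, SE 0.07, adjusted p = 2.7e-06), while it fell by 1.51 in iSP (SE 0.20) and by 0.48 in iNP (SE 0.13). Mbtps2, a protease that cuts SREBP proteins, rose by 0.34 in iUB and 1.24 in iSP. Srebf2 fell in all 3 comparisons with E11.5, by 0.70 in SP, and by 0.21 in UB (adjusted p = 0.0442) and 0.30 in NP (adjusted p = 0.0483), where the calls were lost with quantile and upper-quartile scaling. Srebf1 rose by 0.43 in iUB, fell by 0.47 in iNP and differed by 0.10 in iSP, where it did not pass. With quantile normalisation the calls of Insig1 and Srebf1 in iNP and of Mbtps2 in iUB were lost. At E12.5 Srebf2 was lower than at E11.5 by 0.61 in UB, 0.83 in SP and 0.75 in NP. Insig1 fell by 1.70 in UB from E11.5 to E12.5 and differed by -1.79 (SE 0.65) in SP and -1.78 (SE 0.48) in NP, short of the threshold, and it was 2.64 higher in iUB and 1.30 higher in iNP than in E12.5 cells. Of 7 genes of sensing, 4 were higher and 1 lower in iUB than in E11.5_UB, 2 and 2 in iSP, and 0 and 3 in iNP, where 60.5%, 67.6% and 64.7% of all genes were called.

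Among 7 genes of sterol uptake and movement, 5 were higher in iUB, 3 in iSP and 6 in iNP than in E11.5 cells, and 0, 1 and 0 were lower (medians 0.98, 0.35 and 0.91). Against E12.5 cells 5, 5 and 6 were higher, beside 23.3%, 33.3% and 25.6% of all genes, and none lower, and without E12.5 replicate 1 these were 5, 6 and 6. Npc2, which carries cholesterol out of lysosomes, rose by 1.33, 1.02 and 1.73, and Lipa, the lysosomal lipase that frees it from esters, by 1.49, 0.94 and 1.71 in UB, SP and NP. Soat1, which esterifies cholesterol, rose by 1.13 in iNP. Of 6 genes induced by sterol excess 5 were tested, and 2 were higher and 2 lower in iUB, 2 and 3 in iSP, and 2 and 2 in iNP than in E11.5 cells, in comparisons that called 60.5%, 67.6% and 64.7% of all genes. Abcg1, a sterol exporter, fell by 1.93, 1.06 and 2.06, and Abca1, another exporter, fell by 3.19 in iUB and 1.75 in iSP and differed by -0.53 (SE 0.35) in iNP, where it did not pass. Nr1h2, a nuclear receptor for oxysterols, fell by 1.0 in iSP (SE 0.16) and by 0.80 in iNP (SE 0.10) and differed by -0.29 (SE 0.15) in iUB, where it did not pass. Among those that rose was Mylip, whose product degrades lipoprotein receptors, by 1.19, 1.09 and 1.48.

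Of 8 genes that use farnesyl diphosphate or its products, 2, 3 and 3 were higher and 3, 4 and 3 lower in iUB, iSP and iNP than in E11.5 cells, beside the same shares of all genes. Pdss2, for ubiquinone, rose by 0.70, 0.78 and 0.70, and Fntb, a farnesyltransferase subunit, by 0.39, 0.90 and 0.83. Pggt1b, for geranylgeranylation, fell by 0.62, 0.89 and 1.14, Nus1, for dolichol, fell by 0.40 in iUB and Ggps1, which makes geranylgeranyl diphosphate, fell by 0.77 in iNP. Of 10 genes of fatty acid synthesis, 8 were higher and 0 lower in iUB, 5 and 2 in iSP, and 4 and 1 in iNP than in E11.5 cells (medians 0.93, 0.36 and 0.22). Against E12.5 cells 8, 7 and 6 were higher, beside 23.3%, 33.3% and 25.6% of all genes, and 0, 1 and 0 lower, and without E12.5 replicate 1 these were 8, 8 and 6, and 0, 2 and 0. Against E11.5_SP the iSP counts of fatty acid genes were 7 higher and 1 lower without E11.5_SP replicates 3 and 4 and 4 and 2 without replicates 1 and 2, and those of uptake genes 6 and 1, and 3 and 1. Scd1, a fatty acid desaturase, rose by 2.7, 1.47 and 2.03, and Acss2, an acetyl-CoA synthetase, by 1.39, 1.38 and 1.34. Me1, the malic enzyme, rose by 1.27 in iUB and fell by 1.72 in iSP, and Fasn, the fatty acid synthase, fell by 0.62 in iNP (SE 0.24), a call lost without any one E11.5_NP library.

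**Figure D4:**
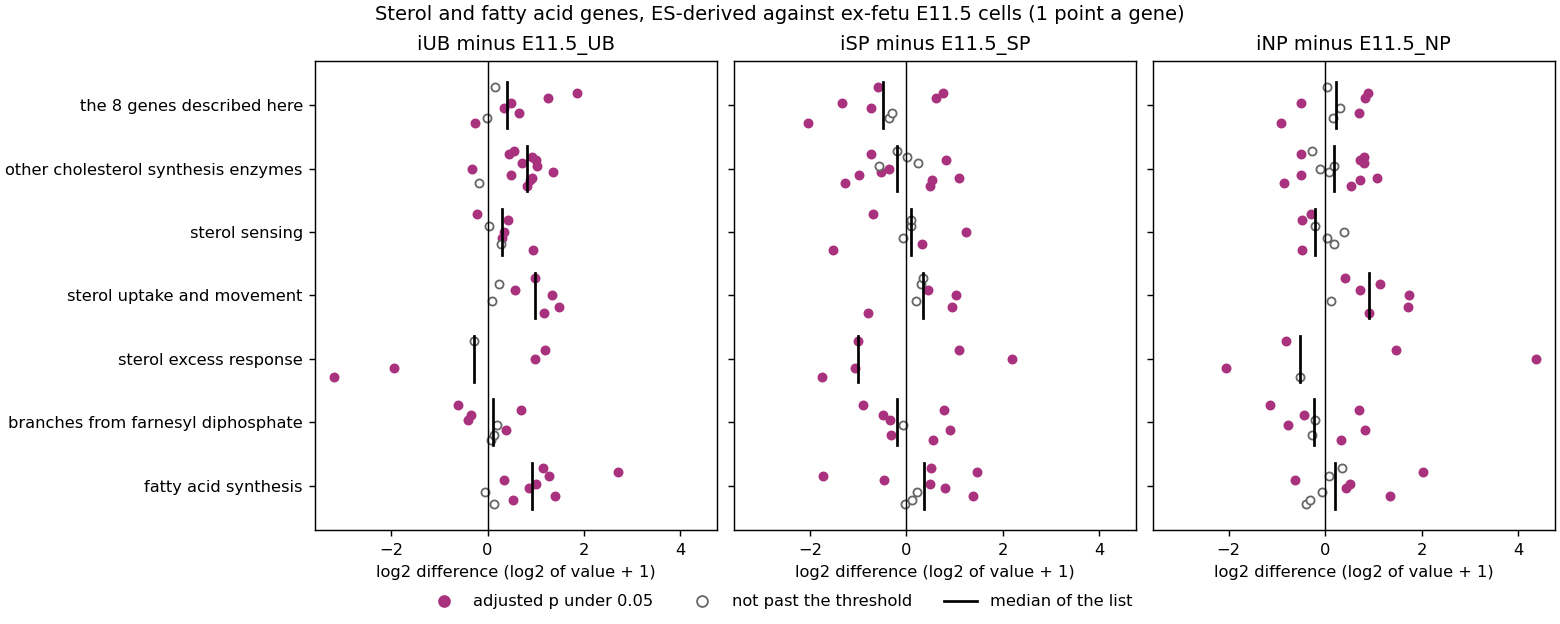
Log2 difference (log2 of value plus 1) between ES-derived and E11.5 ex-fetu cells for the 8 genes and for 6 lists of related genes, 1 point a gene, with the median of each list as a bar. In iUB 11 of 13 other cholesterol synthesis enzymes and 8 of 10 fatty acid genes lie past the threshold above 0, while in iSP the enzymes lie on both sides of 0.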

How the data were processed

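RNA was sequenced from 36 sorted samples with a stranded mRNA kit and paired-end reads. Per the labels and the study's methods, the authors used Cutadapt for trimming, STAR for alignment and edgeR for normalisation; the counting program is not given in the sources used here. The build named in the labels is a human one, while the gene identifiers are mouse, and 22649 of 22761 (99.5%) were matched to GENCODE vM21 (GRCm38). The values deposited by the authors are a signal, CPM scaled by edgeR's factors. In every library 100% of values were whole multiples of 1 read (tolerance 0.01), which gave the reads back. Other deposited columns hold the authors' own fold changes, p-values and group means and were not used.

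Groups came from the titles. Each comparison was fitted on its own 8 libraries (16 for interactions) with limma 3.58.1 with trend, on log2(value + 1), for genes at 1 or more in at least 4 libraries, adjusted by Benjamini-Hochberg and called at an adjusted p under 0.05. There were 18 comparisons and 3 interactions. Alternatives were a pseudocount of 0.1, no filter, one fit of all libraries, quantile and upper-quartile scaling, edgeR 4.0.16 and DESeq2 1.42.0 on the recovered reads, a replicate block and leaving out each library; leaving out E12.5 replicate 1 from both groups, pairs of E11.5_SP libraries, and these libraries from list counts and correlations was added after the data were seen. Fits were tested on simulated data. Software was R 4.3.3, Python 3.11.15, numpy 2.4.6, scipy 1.17.1, pandas 2.3.3, matplotlib 3.10.9 and BLAST 2.17.0; near-copies had at least 95% identity over at least 100 bases.

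Replicates correlated at r of at least 0.977 and no pair was a duplicate, with a chi-square per degree of freedom of at least 4.15. Replicate numbers paired libraries only between E12.5_NP and E12.5_SP, where deviations from the group means correlated at 0.519 to 0.682 for same-numbered libraries.

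All 8 genes were fitted and counted in every comparison; between cell types of one origin, values are given mainly for those that passed. Of each further list, up to 3 genes with the largest called differences from E11.5 cells were named, with Srebf1, Srebf2 and Insig1, and of the genes most like the 8 the first 10. Values of the falling enzymes Sc5d, Hsd17b7 and Lbr and of Nr1h2 were added after they were seen. Some genes given by these rules are not reported here. The 8 genes and the lists were chosen with earlier results of these data known.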

Additional observations from a re-analysis of the deposited data

Results flagged for a closer look

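In 9 of the 72 sets of 4 libraries (8 genes in 9 groups) the highest or lowest library stood apart, by a gap that exceeded Dixon's 95% critical value as a share of the set's range. For a single set, chance alone gives this in about 5% of cases. The 8 genes of a group share the same 4 libraries and move together, so the sets are not independent. The count of 9 therefore cannot be set against that rate. Of the 9, 6 were E12.5 replicate 1 as the highest library, here with the gap divided by the range. In E12.5_SP this was Hmgcs1 (0.958), Sqle (0.935), Cyp51 (0.849), Fdft1 (0.845) and Lss (0.84), and in E12.5_NP it was Hmgcs1 (0.904). The others were Lss in iNP replicate 2 (lowest, 0.878), Cyp51 in E11.5_UB replicate 3 (highest, 0.846) and Hmgcs1 in iNP replicate 3 (lowest, 0.844).

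The change from E11.5 to ES-derived cells differed between cell types in 12 of 24 interaction tests (limma, adjusted p under 0.05); of all genes 47.4% (UB against SP), 47.1% (UB against NP) and 29.3% (SP against NP) passed. UB against SP gave Idi1 1.81, Cyp51 1.78, Hmgcs1 1.08, Mvd 1.08, Fdps 0.95 and Sqle 0.74 on the log2 scale. UB against NP gave Mvd 0.97, Idi1 0.97 and Cyp51 0.66. SP against NP gave Cyp51 -1.12, Hmgcs1 -1.05 and Fdps -1.0.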

How the results depend on the processing

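With pairs of E11.5_SP libraries left out, 4 differences were called with a sign other than the reported, uncalled one: between E11.5 UB and SP Cyp51 (0.20) without replicates 3 and 4, and Idi1 (-0.63) and Sqle (-0.26) without replicates 1 and 2, and in iSP against E11.5_SP Pmvk (-0.28) without replicates 1 and 2. No other called difference changed sign. Of values of the 8 genes called in neither setting, 16 of 529 changed sign under the other alternatives (rounded to 2 decimals), 29 of 635 with a library left out and 11 of 33 with such a pair left out. Over the 8 genes and all comparisons, 1253 values kept their side of the threshold under the alternatives, 39 passed it newly and 52 no longer did; with a library left out these were 1406, 47 and 107, and with such a pair left out 65, 20 and 8. For the further genes named beside E11.5 cells these were 626, 19 and 27 under the alternatives, 630, 9 and 29 with a library left out and 45, 5 and 3 with such a pair left out; of values called in neither setting 6 of 109, 5 of 119 and 1 of 6 changed sign. The number of the 8 genes called moved by more than 1.5 times as follows, and the cause was not tested. One fit of all 36 libraries gave 3 in iUB against E11.5_UB, 5 in iSP against E12.5_SP, 5 between UB stages, 7 between SP stages, 1 between E11.5 NP and SP, 3 between E12.5 UB and SP, 2 between E12.5 NP and SP, 2 between iNP and iSP, and 1 in the interaction of UB with NP. Between SP stages no filter gave 0, edgeR 0 and DESeq2 2; between E12.5 NP and SP edgeR gave 0 and DESeq2 2. Quantile normalisation gave 1 between E11.5 NP and SP, and no filter gave 2 between iNP and iSP. The replicate block gave 0 between SP stages, 3 between NP stages, 4 between E12.5 UB and SP, 3 between E12.5 NP and SP and 2 between iNP and iSP. Except between E12.5 NP and SP, the numbers of the block are shared numbers and not known pairs. With E12.5 replicate 1 left out of both groups, 7 genes differed between E12.5 UB and SP and 3 between E12.5 NP and SP. Without E11.5_SP replicates 3 and 4, and without replicates 1 and 2, the counts were 0 and 0 between SP stages, 8 and 5 between E11.5 UB and SP, 2 and 7 between E11.5 NP and SP, and 1 and 7 in the interaction of SP with NP.

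With each library left out in turn, counts ran from 3 to 6 in iSP against E11.5_SP, 2 to 7 in iSP against E12.5_SP, 0 to 7 between SP stages, 1 to 6 between NP stages, 1 to 4 between E11.5 UB and SP, 1 to 3 between E11.5 NP and SP, 2 to 6 between E12.5 UB and NP, 1 to 6 between E12.5 UB and SP, 0 to 1 between E12.5 NP and SP, 1 to 5 between iNP and iSP and 1 to 5 in the interaction of SP with NP. Over all genes, calls between UB stages were 3648, and 2365 with the replicate block, 2332 without E11.5_UB replicate 1 and 5982 without E12.5_UB replicate 1. Between SP stages they were 1162, and 3141 in one fit of all libraries, 2097 by DESeq2 and 2889 without E12.5_SP replicate 1. Between NP stages they were 850, and 1572, 1911 and 2249 in the same settings. With another library left out they fell as low as 392 between SP stages (152 without E11.5_SP replicates 1 and 2), 147 between NP stages and, from 4550, 2924 between E12.5 UB and NP; between E12.5 NP and SP they were 4789, and 7961 with the replicate block. Depth limits Idi1 most, at 48 reads in its lowest library.
Upper-quartile scaling moved the median of all genes from 0.04 to 0.17 in iNP against E12.5_NP and from 0.04 to 0.15 in iSP against E12.5_SP, and the share of called genes that were higher from 57.7% to 69.9% in the former. Quantile normalisation moved that share from 56.3% to 44.7% between E12.5 UB and NP and from 40.5% to 52.6% in the interaction of SP with NP, and upper-quartile scaling from 47.2% to 37.2% in that of UB with NP and the median from 0.00 to -0.11 between iUB and iNP.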
